A study of Homo sapiens with 59 samples.

Results

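The 10 genes described here encode the 4 kinases that phosphorylate the translation initiation factor eIF2 (EIF2AK1, EIF2AK2, EIF2AK3 and EIF2AK4), a pair of regulators of the last of these (GCN1 and IMPACT), both regulatory subunits of the phosphatase that reverses the reaction (PPP1R15A and PPP1R15B), the phosphorylated subunit itself (EIF2S1) and the catalytic subunit of its exchange factor (EIF2B5). They were taken by name from 34622 genes with a row in at least 1 of the 7 deposited tables, and 9 of the 10 were abundant enough to be tested in every table. The cells were Jurkat, an established human T cell leukaemia line, collected at day 3 in medium with 1 of 7 essential amino acids lowered to a level labelled 25%. Histidine, methionine, phenylalanine and tryptophan each had 5 restricted and 5 control libraries. Isoleucine, leucine and valine had 5 restricted libraries each and shared the same 4 branched-chain control libraries, so their comparisons are not independent of one another. No genetic change or drug is named in the labels, and the labels say nothing of what the control media contained. All cells came from a single line, so the values describe that line.

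eIF2 carries the initiator tRNA to the ribosome and must be recharged with GTP by eIF2B after each round of initiation. Phosphorylation of its alpha subunit turns eIF2 into an inhibitor of eIF2B, which lowers general translation while favouring a small set of mRNAs such as that of the transcription factor ATF4. Each kinase responds to its own signal: EIF2AK1 (HRI) to haem shortage and mitochondrial stress, EIF2AK2 (PKR) to double-stranded RNA, EIF2AK3 (PERK) to unfolded protein in the endoplasmic reticulum, and EIF2AK4 (GCN2) to uncharged tRNA and stalled ribosomes during amino acid shortage. The kinases are controlled mainly by their activity, which mRNA levels do not measure.

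The promoters of both phosphatase subunits are shown because the first was called in 3 comparisons and the second in none with the deposited scaling. PPP1R15A (GADD34) is the stress-inducible subunit and PPP1R15B (CReP) the constitutive one. The sequences are the 250 bases before the RefSeq start (GRCh38.p14), written 5′ to 3′ on the gene's strand, with every match to a searched motif in capitals.
PPP1R15A, chr19:48872171-48872420, plus strand: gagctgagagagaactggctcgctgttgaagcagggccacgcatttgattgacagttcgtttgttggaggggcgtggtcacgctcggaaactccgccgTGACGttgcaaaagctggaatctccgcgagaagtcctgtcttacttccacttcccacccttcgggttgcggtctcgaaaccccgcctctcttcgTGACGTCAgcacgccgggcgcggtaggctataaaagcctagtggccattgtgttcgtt
PPP1R15B, chr1:204411818-204412067, minus strand: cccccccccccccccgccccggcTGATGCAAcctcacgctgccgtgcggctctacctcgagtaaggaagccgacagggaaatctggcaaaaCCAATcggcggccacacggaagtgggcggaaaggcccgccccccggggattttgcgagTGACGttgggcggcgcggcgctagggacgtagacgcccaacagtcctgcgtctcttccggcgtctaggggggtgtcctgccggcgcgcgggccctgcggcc
Of the 10 genes, 9 had a promoter in the RefSeq table, and EIF2AK1 was the gene with no match. Motifs were searched on both strands of the 250 bases in these 9 and in 35116 promoters. The full cAMP response element (TGACG followed by TCA) was present in 1.65% of all promoters and in PPP1R15A, 58 to 51 bases before the start. Its shorter form TGACG, which lies within it, was present in 21.22% of all promoters and in PPP1R15A and PPP1R15B. The C/EBP-ATF element TGATGNAA, the kind of site bound by ATF4 with a C/EBP partner, was present in 3.14% of all promoters and in PPP1R15B, 227 to 220 bases before the start. CCAAT was present in 32.01% of all promoters and in PPP1R15B, EIF2AK2 and EIF2AK3. The interferon-stimulated response element (GAAA, 2 bases of any kind, GAAA) was present in 3.02% and wholly inside none of the 9. The EIF2AK2 stretch ends in gaaaac, the opening letters of this element, so a site crossing that edge would be missed. The full endoplasmic reticulum stress element (CCAAT, 9 bases of any kind, CCACG) was present in 0.07% and in none of the 9. A match is a description of the letters and does not show that a factor binds.

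Values are normalised counts, scaled within each table, and summed to between 14.9 and 20.5 M in the 59 libraries. All 7 T cell markers had rows in every table and summed to between 31237 and 52806 normalised counts per library. For other cell types, with 3 markers each of which not all had rows, the highest sums were 1201 (epithelial, in a library of the phenylalanine table), 817 (B cell), 111 (NK cell), 40.9 (erythroid) and 34.8 (myeloid), and their part in the results was not tested. Libraries with ribosomal protein mRNA more than 0.5 log2 units above the rest of their group were phenylalanine restricted 2, phenylalanine control 1, branched-chain control 1 and valine restricted 2. Nothing in the labels ties replicate libraries to separate cultures, so p-values measure only the spread between libraries, which may be technical. Restricted and control libraries were compared by limma after log2(normalised count + 1) transformation, adjusted over all genes of a table by the Benjamini-Hochberg method and called below 0.05. Such log2 fold changes understate changes of low genes. When all library totals were set equal, the typical gene shifted upward: the median over genes rose most for tryptophan (by 0.25 log2 units), then methionine (0.13), phenylalanine (0.12) and valine (0.11). The share of called genes that were higher then moved from 45.9% to 71.0% (tryptophan), from 52.2% to 62.6% (methionine), from 40.3% to 67.0% (phenylalanine) and from 41.1% to 63.7% (valine).

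Under tryptophan restriction PPP1R15A and EIF2AK4 rose, and EIF2B5, EIF2S1, EIF2AK3 and GCN1 fell, which is 6 of 9 tested. In that comparison 51.3% of all tested genes were called, 23.6% higher and 27.7% lower. With equal totals 4 members rose and 2 fell, and of 16705 genes tested 9687 were called, 6873 higher and 2814 lower. Methionine restriction raised PPP1R15A, EIF2S1 and GCN1, 3 of 9, where 53.2% of all genes were called and 27.8% were higher. With equal totals 8 of 9 rose for methionine, and of 16906 genes tested 9328 were called, 5842 higher. Histidine restriction raised EIF2S1 (1 of 9, against 27.9% of all genes called and 15.6% higher), and phenylalanine restriction raised EIF2S1 (1 of 9, against 10.2% called and 4.11% higher). Leucine restriction lowered PPP1R15A (1 of 9, against 7.75% of all genes called, 3.41% higher and 4.33% lower), and valine restriction lowered EIF2AK3 (1 of 9, against 12.5% called, 5.13% higher and 7.36% lower). In the isoleucine comparison limma called no member and 0% of all genes. There, 872 of 16623 genes had an unadjusted p under 0.05, EIF2B5 among them. Such a count is close to the share of 0.05 that would pass if no gene changed. Against these backgrounds the counts of members say little, and the results below concern single genes. In bulk RNA, fewer cells expressing a gene and less RNA per cell cannot be told apart. The median log2 fold change of the 9 members was highest for methionine (0.31) and lowest for tryptophan (-0.08), with leucine (0.11), histidine (0.11), isoleucine (0.09), phenylalanine (0.01) and valine (-0.03) in between, while the median over all genes lay between -0.01 and 0.03.

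**Figure D1:**
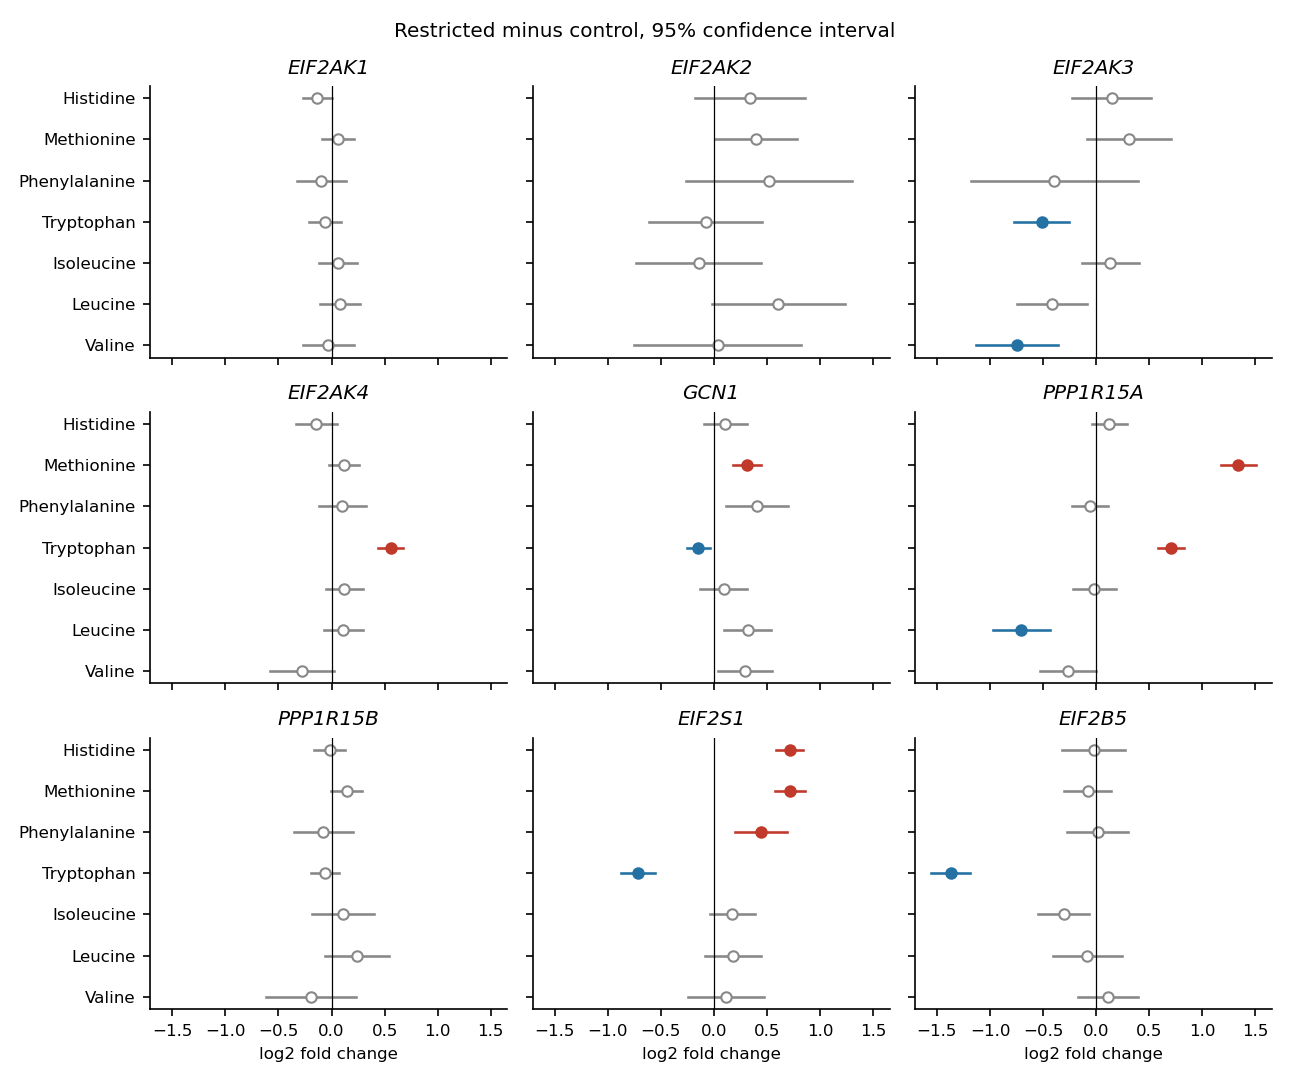
Log2 fold change of each tested member, restricted minus control, with its 95% confidence interval, for the 7 amino acids (rows in each panel). The interval of PPP1R15A lies above 0 for methionine (1.34) and tryptophan (0.70) and below 0 for leucine (-0.70), while those of EIF2AK1 stay between -0.33 and 0.27 throughout.

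EIF2AK4, the kinase activated by amino acid shortage, rose in the tryptophan comparison. Restricted libraries 1 to 5 held 1976, 2172, 2147, 1938 and 2035 normalised counts, against 1358, 1430, 1338, 1421 and 1425 in the controls. Every restricted library lay above every control, and the log2 fold change was 0.56 (SE 0.06, limma adjusted p 1.26e-06). In the other 6 comparisons its log2 fold change lay between -0.27 (valine, adjusted p 0.221) and 0.12 (isoleucine, adjusted p 0.797). None of these was called, but with equal totals the methionine value went from 0.12 to 0.24 and was called (adjusted p 0.00894). Valine restricted library 2, one of those high in ribosomal protein mRNA, held 1080 normalised counts of EIF2AK4 where the other 4 held 1520 to 1679. The tryptophan response differed from each of the other 6 responses in a test of the difference itself (largest adjusted p 0.000951). When each library was scaled to a total of 1 M normalised counts (a level per M), tryptophan controls had the lowest EIF2AK4 level of the 12 groups, 75.3 ± 2.6 (SD, n = 5), and the tryptophan restricted group, at 131.6 ± 8.2, was next to the highest.

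EIF2AK3, the kinase of the endoplasmic reticulum membrane, fell under tryptophan and valine restriction. In the tryptophan comparison the restricted libraries held 274, 325, 307, 331 and 227 normalised counts and the controls 468, 448, 343, 431 and 393. The groups did not overlap, and the log2 fold change was -0.51 (SE 0.12, limma adjusted p 0.00258). With equal totals it was -0.27 (adjusted p 0.0629), so the call depended on the scaling. In the valine comparison the restricted libraries held 380, 266, 258, 381 and 374 and branched-chain controls 1, 3, 4 and 5 held 500, 535, 705 and 482. These groups did not overlap either, with a log2 fold change of -0.75 (SE 0.18, adjusted p 0.0175). Control 4 was the highest of the 4, and without it the value was -0.63 (adjusted p 0.0520). The leucine change of -0.42 missed the threshold (adjusted p 0.11, 95% interval -0.75 to -0.09).

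The phenylalanine comparison of EIF2AK3 turned on 1 control library. Phenylalanine control 1 held 135 normalised counts of EIF2AK3 while the other 4 controls held 483 to 619 and the restricted libraries 249 to 400. With all libraries the log2 fold change was -0.39 (limma adjusted p 0.541), and without that control it was -0.80 (adjusted p 0.00456). Without both phenylalanine libraries high in ribosomal protein mRNA it was -0.71 (adjusted p 0.00127). Calls over all genes rose as well, from 1736 of 17021 to 2542 of 16762 and 4435 of 16767. For methionine the log2 fold change of EIF2AK3 was 0.31 (adjusted p 0.170). Methionine control 1 stood apart at 213 normalised counts against 398 to 470 in the other 4. With equal totals the methionine value was 0.44 and was called (adjusted p 0.0430). The methionine response exceeded the valine response by 1.06 (adjusted p 0.00562) and the leucine response by 0.73 (adjusted p 0.0295). The histidine response exceeded the valine response by 0.89 (adjusted p 0.0255), and the tryptophan response lay below the isoleucine response by 0.65 log2 units (adjusted p 0.00673).

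EIF2AK2, the kinase activated by double-stranded RNA, passed the threshold in none of the 7 comparisons with the deposited scaling. Its log2 fold change ranged from -0.14 (isoleucine) to 0.60 (leucine, 95% interval -0.02 to 1.23, limma adjusted p 0.213). Methionine restricted libraries held 687, 590, 1093, 640 and 1181 normalised counts against 737, 514, 615, 599 and 607 in the controls, a log2 fold change of 0.40 (adjusted p 0.0815). Of these, 2 restricted libraries lay above all controls and 3 lay among them. Without restricted library 2 the change was 0.51 and passed (adjusted p 0.0301), as it did with equal totals (0.52, adjusted p 0.0308). Tryptophan restricted libraries ran from 426 to 1159 and tryptophan controls from 465 to 879.

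EIF2AK2 varied more between libraries of a group than any other tested member. The median over 12 groups of its coefficient of variation was 34.9% (range 13.0% to 51.0%), which placed it at percentile 99.5 among 3097 genes of similar level (within 1.5-fold). EIF2AK3 followed with 17.7% (percentile 84.2 of 2638) and EIF2B5 with 12.9% (percentile 79.1 of 3168). EIF2AK4 had the lowest median, 5.70% (percentile 4.03 of 2260). Group means per M ran from 25.7 to 54.5 for EIF2AK2 and from 18.7 to 35.3 for EIF2AK3, and every group overlapped its neighbour in the order of either gene. The intervals of EIF2AK2 are correspondingly wide, and for phenylalanine reached from -0.26 to 1.31.

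**Figure D2:**
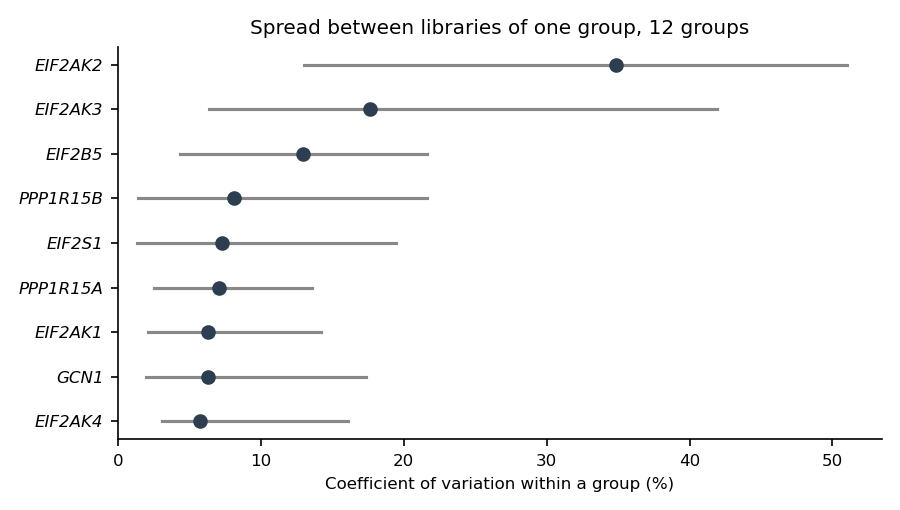
Coefficient of variation of each tested member between the libraries of 1 group (percent), as the median (point) and range (line) over the 12 groups. EIF2AK2 lies highest, with a median of 34.9%, and EIF2AK4 lowest, with 5.70%.

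EIF2AK1, the haem-regulated kinase, varied least between conditions of the tested members. Its log2 fold changes lay between -0.13 (histidine, limma adjusted p 0.135) and 0.08 (leucine, adjusted p 0.605), and group means per M ran from 222 to 290, a ratio of 1.31. Equal totals gave calls of 0.19 for methionine and 0.18 for tryptophan (adjusted p 0.0188), the latter from a value of -0.06 before scaling. Without both phenylalanine libraries high in ribosomal protein mRNA, the phenylalanine value went from -0.10 to -0.18 and was called (adjusted p 0.0262).

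**Figure D3:**
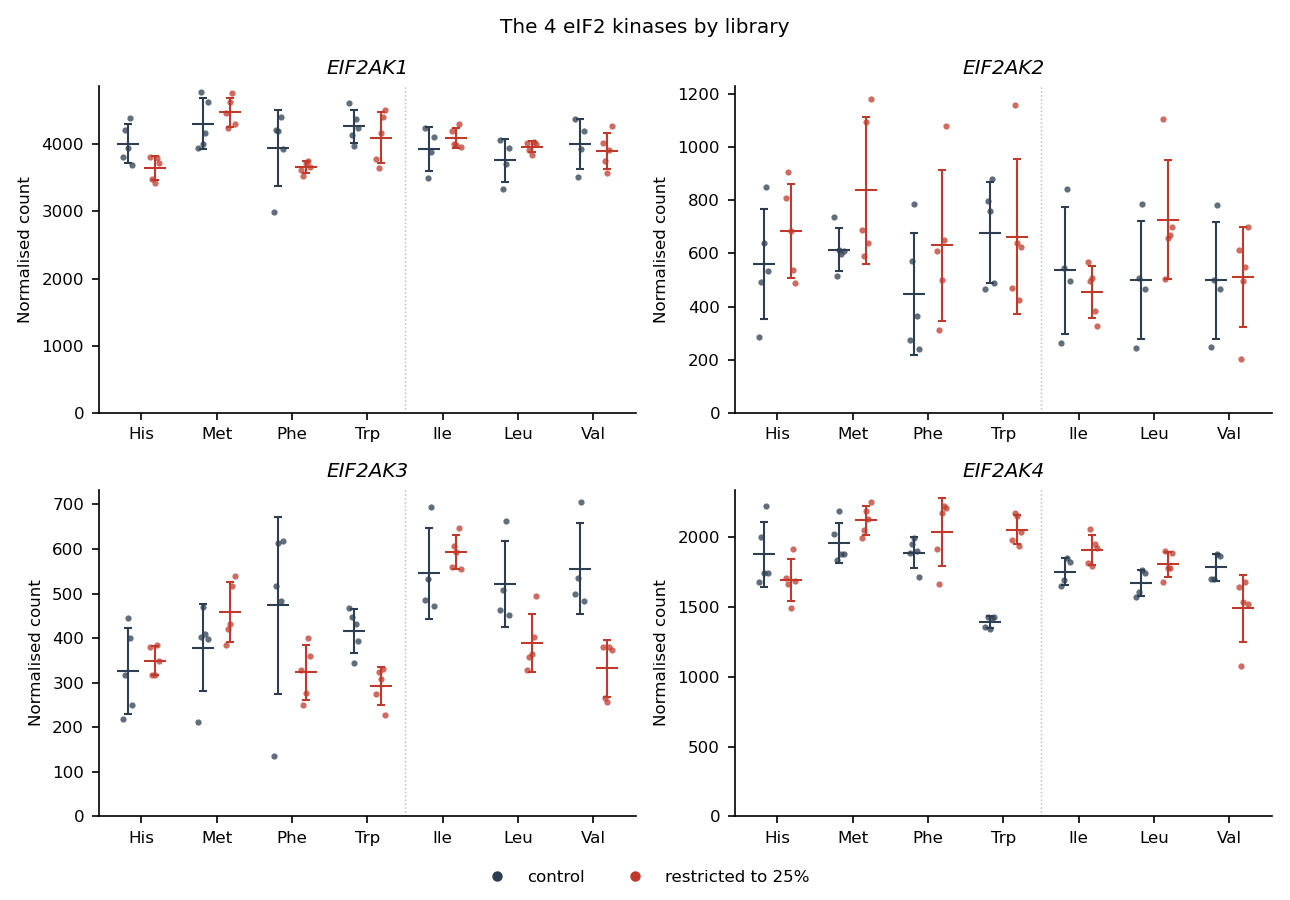
Normalised counts of the 4 kinases in every library, by amino acid table, control (dark) and restricted (red) side by side, with mean and SD. EIF2AK4 separates in the tryptophan table (1938 to 2172 restricted, 1338 to 1430 control), and EIF2AK2 scatters within groups (426 to 1159 in tryptophan restricted libraries).

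GCN1 binds ribosomes and is required for GCN2 activation in starved cells. It rose under methionine restriction, from 3160, 3268, 3232, 3396 and 3035 normalised counts in the controls to 4017, 3605, 4251, 3903 and 4221. All 5 restricted libraries lay above the controls, with a log2 fold change of 0.31 (SE 0.06, limma adjusted p 0.000825). Under tryptophan restriction GCN1 fell from 3807, 4090, 4249, 4068 and 4296 to 3716, 3645, 3798, 3746 and 3624, a log2 fold change of -0.15 (adjusted p 0.0241) that became 0.10 (adjusted p 0.11) with equal totals. The highest restricted library and the lowest control were 3798 and 3807, so the separation was narrow. Changes of 0.41 for phenylalanine (adjusted p 0.0775), 0.32 for leucine (adjusted p 0.0813) and 0.29 for valine (adjusted p 0.128) missed the threshold. Phenylalanine control 1 again stood apart, at 2606 against 3765 to 4202. Without both phenylalanine libraries high in ribosomal protein mRNA the change was 0.34 and passed (adjusted p 0.000792), and with equal totals it was 0.52 (adjusted p 0.0377). The tryptophan response differed from the methionine (adjusted p 0.00384), phenylalanine (adjusted p 0.000941), leucine (adjusted p 0.00156) and valine (adjusted p 0.00476) responses.

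IMPACT competes with GCN2 for GCN1 and is known mainly from neurons. It had a row in the histidine and phenylalanine tables and none in the 5 other tables used here. In the first of these, 4 of 10 libraries were listed at 0 and the highest value was 7.38 normalised counts, in a control. In the second, 7 of 10 were listed at 0 and the highest was 24.2, also in a control. Its mean was below 10 in both tables, and it was not tested.

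PPP1R15A had the widest range of responses of the tested members, spanning 2.04 log2 units. Methionine restricted libraries held 3654, 3592, 3451, 4211 and 4114 normalised counts against 1594, 1387, 1504, 1394 and 1629 in the controls. The groups were far apart, 2.53-fold in means, with a log2 fold change of 1.34 (SE 0.08, limma adjusted p 8.15e-09). Its size exceeded that of 88.5% of genes tested in that comparison. Tryptophan restricted libraries held 1676, 1909, 1749, 1884 and 1696 against 1110, 1097, 1123, 1048 and 1082. These controls were the tightest of the 3 comparisons in which PPP1R15A was called, and the log2 fold change was 0.70 (SE 0.06, adjusted p 2.06e-07).

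Leucine restriction moved PPP1R15A the other way. Restricted libraries held 1641, 2291, 2111, 2283 and 2259 normalised counts and branched-chain controls 1, 3, 4 and 5 held 4118, 3043, 3218 and 3410. The groups did not overlap, and PPP1R15A fell by 0.70 on the log2 scale (SE 0.12, limma adjusted p 0.00665). Restricted library 1 was the lowest of its 5 by a wide gap, and control 1, a library high in ribosomal protein mRNA, was the highest of the 4. Without that control the change was -0.62 (adjusted p 0.00443). The changes for histidine (0.12, adjusted p 0.249), phenylalanine (-0.06, adjusted p 0.697), isoleucine (-0.02, adjusted p 0.966) and valine (-0.27, adjusted p 0.173) were not called. The methionine response differed from each of the other 6 (largest adjusted p 5.46e-07), and so did the tryptophan response (largest adjusted p 1.25e-05). The leucine response differed from all 4 with which it was compared. Isoleucine, leucine and valine were not tested against each other because they share their controls.

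The controls themselves stood at different PPP1R15A levels. As a level per M of library total, tryptophan controls had 59.0 ± 1.8 (SD, n = 5), histidine controls 81.5 ± 3.9 and methionine controls 89.2 ± 7.2, against 208 ± 6.2 in phenylalanine controls and 207 ± 8.7 (n = 4) in branched-chain controls. No library of the first 3 control groups overlapped the last pair. The highest group was methionine restricted, 247 ± 16.4, whose libraries lay above those of all other groups, and its level was 4.18 times that of tryptophan controls. The tryptophan restricted group, at 114 ± 7.1, stood above its own controls and below the phenylalanine and branched-chain controls. A pair of other stress genes was also higher in those control groups: mean HSPA5 was 42264 normalised counts in phenylalanine controls and 50550 to 53874 in branched-chain controls, against 7577 to 8653 in the other 3 control groups. Mean TRIB3 was 15179 in phenylalanine controls and 14840 to 15831 in branched-chain controls, against 1768 to 3285 in the other 3. These means come from separately normalised tables, and what sets the control groups apart was not tested.

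**Figure D4:**
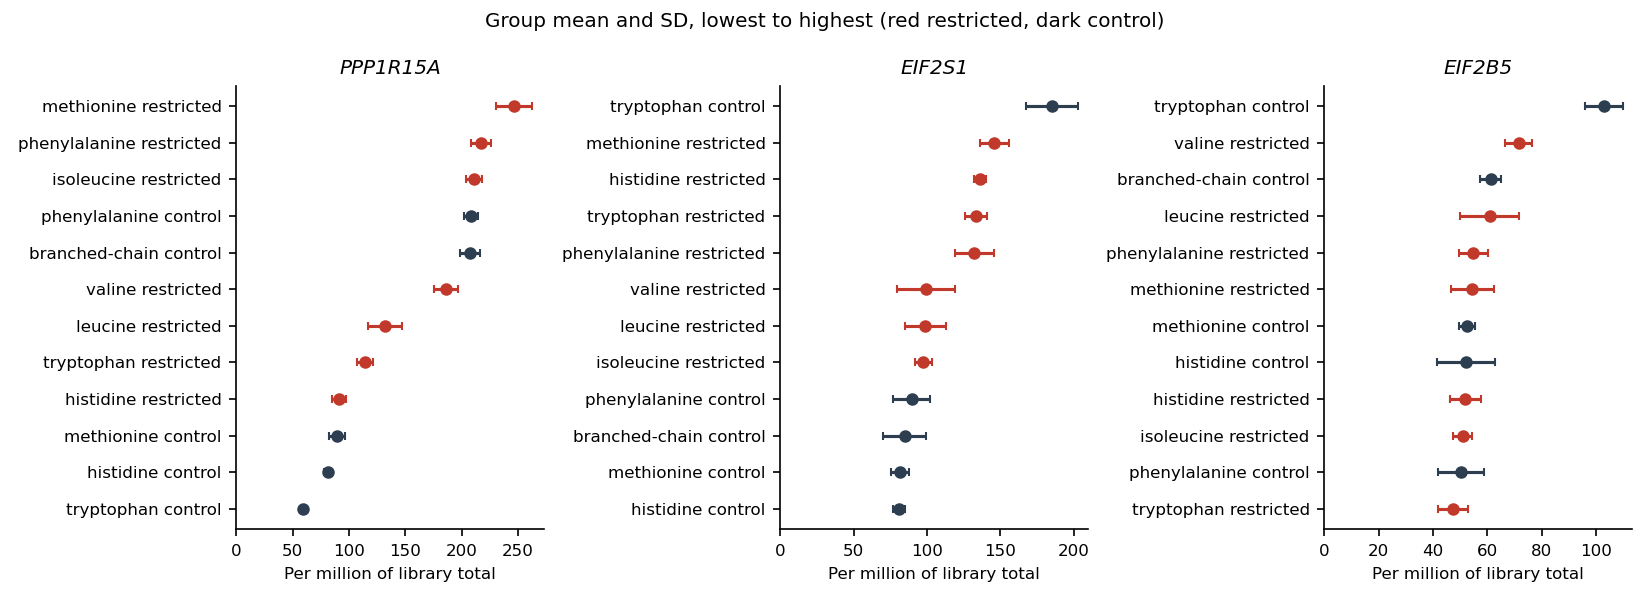
Mean and SD per M of library total in the 12 groups, from lowest to highest, for PPP1R15A, EIF2S1 and EIF2B5. PPP1R15A runs from 59.0 in tryptophan controls to 247 in methionine restricted libraries, and tryptophan controls are the highest group for EIF2S1 (185) and EIF2B5 (103).

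PPP1R15B was called in none of the 7 comparisons with the deposited scaling, with log2 fold changes from -0.20 (valine) to 0.24 (leucine). For methionine it was 0.14 (95% interval -0.00 to 0.29, limma adjusted p 0.0901), and with equal totals it was 0.27 and was called (adjusted p 0.00927). PPP1R15A changed by 1.34 in the same comparison. In the valine comparison restricted library 2 held 1350 normalised counts of PPP1R15B against 2288 to 2551 in the other 4. For tryptophan the value was -0.06 (adjusted p 0.401), and 0.18 (adjusted p 0.0172) with equal totals, so its direction depended on the scaling. The level of PPP1R15B per M ran from 106 in tryptophan controls to 197 in methionine restricted libraries, and tryptophan controls alone did not overlap their neighbour in the order.

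EIF2S1, which encodes eIF2 alpha, rose in 3 comparisons and fell in 1. Histidine restricted libraries held 2232, 2257, 2222, 2213 and 2285 normalised counts against 1391, 1394, 1236, 1381 and 1445 in the controls. The restricted libraries were almost level with each other and all above the controls, with a log2 fold change of 0.71 (SE 0.06, limma adjusted p 2.33e-06). Methionine restricted libraries held 2428, 2170, 2306, 2229 and 2098 against 1397, 1327, 1450, 1395 and 1275, also 0.71 (SE 0.06, adjusted p 6.22e-07). The histidine and methionine responses differed by 0.00 (SE 0.11, adjusted p 0.995).

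Phenylalanine restricted libraries held 2135, 1927, 2319, 2244 and 2022 normalised counts of EIF2S1 against 2027, 1510, 1484, 1431 and 1418. Control 1 lay among the restricted libraries and the other 4 controls lay below them, giving a log2 fold change of 0.45 (SE 0.11, limma adjusted p 0.0257). Leaving out any 1 of 8 libraries ended this call (adjusted p 0.0505 to 0.0721), the exceptions being restricted 2 and control 1. Without both of these, the libraries high in ribosomal protein mRNA, it was 0.58 (adjusted p 3.37e-05). The changes for isoleucine (0.17), leucine (0.18) and valine (0.11) were not called.

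Under tryptophan restriction EIF2S1 fell. Restricted libraries held 2146, 1888, 1994, 2244 and 2160 normalised counts, and controls held 4069, 3412, 3164, 3387 and 3146. All restricted libraries lay below all controls, and EIF2S1 fell by 0.72 on the log2 scale (SE 0.08, limma adjusted p 2.27e-06). This response differed from each of the other 6 (largest adjusted p 0.00117). As a level per M, tryptophan controls had the highest EIF2S1 level of the 12 groups, 185 ± 17.8, and did not overlap the next group. Restricted libraries of tryptophan (134 ± 7.6), histidine (136 ± 4.2), methionine (146 ± 9.8) and phenylalanine (132 ± 13.5) lay next to each other in that order of levels, and neighbours among them overlapped. The control levels were 81.0 ± 4.3 for histidine, 81.4 ± 6.1 for methionine and 89.8 ± 12.7 for phenylalanine, against 185 for tryptophan. These levels come from separately normalised tables, and their part in the opposite directions was not tested.

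EIF2B5, the catalytic subunit of the exchange factor that phosphorylated eIF2 inhibits, changed in the tryptophan comparison. Restricted libraries held 660, 672, 684, 804 and 877 normalised counts against 1778, 1977, 2030, 1970 and 1762 in the controls. The highest restricted library lay far below the lowest control, and EIF2B5 fell by 1.37 on the log2 scale (SE 0.09, limma adjusted p 1.26e-08). Its size exceeded that of 94.5% of genes tested in that comparison, and with equal totals it fell by 1.12. The response differed from each of the other 6 (largest adjusted p 4.94e-06). For isoleucine the value was -0.31 (unadjusted p 0.0165, adjusted p 0.797), and in the other 5 comparisons it lay between -0.08 and 0.11. As a level per M, tryptophan controls held 102.8 ± 6.9 and did not overlap any other group, while the tryptophan restricted group, at 47.3 ± 5.6, was the lowest and overlapped its neighbour in the order, phenylalanine controls.

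**Figure D5:**
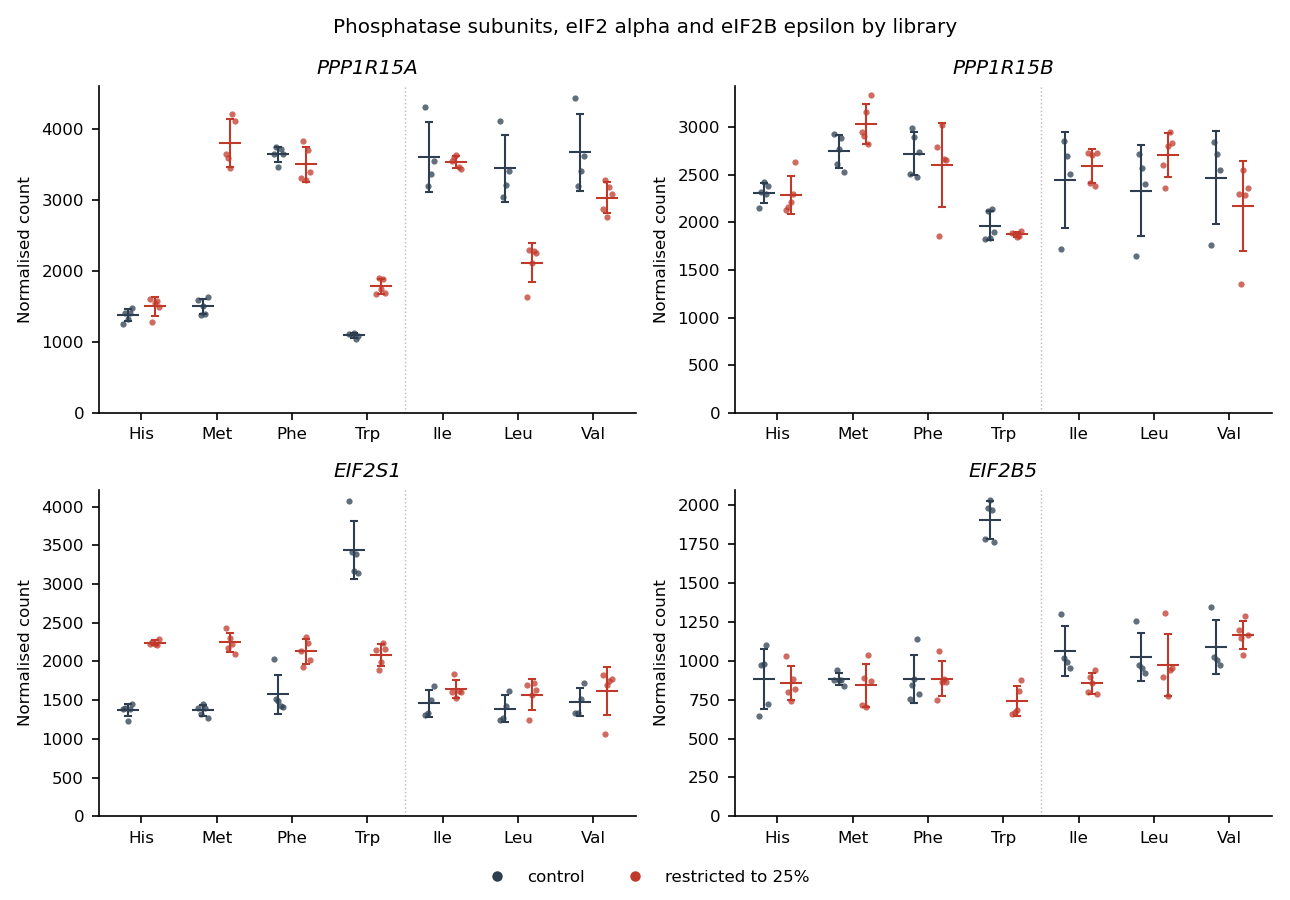
Normalised counts of PPP1R15A, PPP1R15B, EIF2S1 and EIF2B5 in every library, by amino acid table, control (dark) and restricted (red) side by side, with mean and SD. PPP1R15A separates upward for methionine (3451 to 4211 against 1387 to 1629) and downward for leucine, and EIF2B5 separates downward for tryptophan (660 to 877 against 1762 to 2030).

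Responses of the members were compared between amino acids. Over histidine, methionine, phenylalanine and tryptophan, whose controls are separate, an F test of limma found different responses for 5 of 9 members, against 64.9% of all genes tested. These were PPP1R15A, EIF2S1, EIF2B5, EIF2AK4 and GCN1. In 18 pairs of amino acids without shared controls, 46 of 162 differences between member responses were called (28.4%), against 26.1% of all genes over the same pairs. For all genes the share called ran as follows. Methionine against tryptophan gave 49.7%, against phenylalanine 37.5%, against histidine 32.7%, against isoleucine and leucine 37.2% each and against valine 28.3%. Tryptophan against histidine gave 37.2%, against phenylalanine 36.4%, against isoleucine 33.1%, against leucine 40.2% and against valine 35.2%. Histidine gave 15.3% against phenylalanine, 12.2% against isoleucine, 16.6% against leucine and 13.2% against valine. Phenylalanine gave 5.5% against isoleucine, 4.68% against leucine and 0.691% against valine. PPP1R15A thus differed where many genes did, as for methionine and tryptophan, and also for phenylalanine against leucine, where few did (adjusted p 0.0134). None of the differences called was for EIF2AK1, EIF2AK2 or PPP1R15B.

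A list held the partners of eIF2 alpha and EIF2B5 in their complexes. The share of all genes called is to be read beside this list and those that follow. It was 51.3% for tryptophan, 53.2% for methionine, 27.9% for histidine, 10.2% for phenylalanine, 12.5% for valine, 7.75% for leucine and 0% for isoleucine. With equal totals the genes called were 9687 of 16705 for tryptophan (6873 higher) and 9328 of 16906 for methionine (5842 higher). They were 5292 of 17730 for histidine (3372 higher) and 2757 of 16791 for valine (1756 higher). Of 7 partner genes (the other subunits of eIF2 and eIF2B, and EIF5, which acts on GTP bound to eIF2), 6 fell under tryptophan restriction, or 3 with equal totals, and their median log2 fold change was -0.35 against 0.03 over all genes. Among them EIF2B3 went from 718 ± 96.5 to 294 ± 25.1 normalised counts (SD, n = 5 each; log2 fold change -1.28), EIF2B4 from 1833 ± 49.2 to 1064 ± 83.5 (-0.79) and EIF2B2 from 508 ± 34.8 to 267 ± 42.0 (-0.94). Under methionine restriction 3 rose and 2 fell, or 4 and 2 with equal totals. EIF2B4 rose from 640 ± 33.0 to 1152 ± 113 (0.84), EIF5 rose from 2795 ± 292 to 5179 ± 505 (0.89), and EIF2S3, the gamma subunit of eIF2, fell from 6072 ± 220 to 3514 ± 186. EIF2B4 thus rose in one comparison and fell in the other, while EIF2B5 was not called for methionine. For histidine 2 rose and 2 fell, for phenylalanine EIF2S3 alone fell, and for isoleucine, leucine and valine limma called none.

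A further list held 18 genes that switch the kinases or phosphatase on or off. For methionine 9 rose and 4 fell (median 0.37; 53.2% of all genes called), or 11 and 4 with equal totals. For tryptophan 1 rose and 10 fell (median -0.32; 51.3% of all genes called), or 7 and 4 with equal totals. For histidine the counts were 2 and 4, for phenylalanine 0 and 6, for leucine 0 and 2, for valine 1 and 3, and for isoleucine 0 and 0. HSPA5 (BiP), the chaperone that holds EIF2AK3 inactive, went from 50550 ± 1756 (n = 4) to 4297 ± 356 (n = 5) normalised counts under leucine restriction (log2 fold change -3.56). It also fell under valine (-2.79), phenylalanine (-2.54) and histidine (-1.21) restriction, and went from 7577 ± 229 to 3789 ± 128 under tryptophan restriction. DNAJC3 (p58IPK), an inhibitor of EIF2AK2 and EIF2AK3, fell by 1.93 for both leucine and valine and by 1.40 for phenylalanine. TARBP2, which binds and inhibits EIF2AK2, rose from 371 ± 16.5 to 546 ± 34.7 for histidine (0.55). DELE1, which relays mitochondrial stress to EIF2AK1, went from 204 ± 25.8 to 115 ± 21.8 for histidine (-0.83). RPLP2 and RPLP0, proteins of the ribosomal stalk that can activate EIF2AK4, fell under methionine restriction (-1.14 and -0.82). The mean log2 level of 77 ribosomal protein mRNAs was 12.1 to 12.4 in the methionine restricted libraries and 13.4 to 13.9 in their controls, so those of other ribosomal proteins were lower as well.

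Of 15 genes of the unfolded protein response, on which EIF2AK3 is one of the sensors, 12 fell for phenylalanine, 12 for leucine and 13 for valine, and none rose in these 3 comparisons. Median log2 fold changes were -1.54, -1.93 and -1.93. HSPA5 and DNAJC3 are on this list as well as the one before. Besides HSPA5, the chaperone HSP90B1 fell by 2.91 and PDIA4, a disulphide isomerase, by 2.69 under leucine restriction. For histidine 3 rose and 7 fell (27.9% of all genes called), for methionine 5 rose and 4 fell (53.2%), and for tryptophan 6 rose and 7 fell (51.3%). With equal totals these counts were 4 and 7, 6 and 3, and 8 and 5. ERN1, which encodes the sensor IRE1 alpha, rose for tryptophan (1.87) and methionine (1.69), and SEL1L, of the degradation machinery, rose for both (1.28 and 1.30). In the isoleucine comparison limma called none. The phenylalanine and branched-chain controls are those with the high HSPA5 levels given above.

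Of 23 genes in the list of ATF4 and its targets, downstream of eIF2 phosphorylation, 21 were tested. For tryptophan 15 rose and 2 fell (median 0.90), where 51.3% of all genes were called and 23.6% were higher. For histidine 14 rose and 3 fell (median 0.46), where 27.9% were called and 15.6% were higher. For methionine 6 rose and 11 fell (median -0.67), where 53.2% were called and 25.4% were lower. With equal totals the counts were 18 and 2, 15 and 3, and 6 and 11. Falls outnumbered rises for phenylalanine (0 and 4), leucine (1 and 4) and valine (1 and 8), and limma called none for isoleucine. TRIB3, a pseudokinase induced by ATF4 and CHOP, rose from 1768 ± 45.2 to 10826 ± 408 normalised counts for tryptophan (2.61), from 3285 ± 189 to 15223 ± 1014 for methionine (2.21) and from 3269 ± 373 to 6782 ± 633 for histidine (1.06). DDIT3, which encodes CHOP, an activator of PPP1R15A, rose for methionine (1.36), tryptophan (0.29) and histidine (0.33) and fell for leucine (-1.53). PPP1R15A rose for the first pair, was not called for histidine and fell for leucine. PPP1R15A was also not called for phenylalanine, isoleucine and valine, for which DDIT3 is not given here. A link between these genes was not tested. ASNS, asparagine synthetase, rose for tryptophan (1.23) and fell for methionine (-2.15), as did PHGDH (-2.29) and PSAT1 (-1.15), enzymes of serine synthesis, in the latter. ATF4 mRNA rose for methionine (0.35) and fell for histidine (-0.36) and tryptophan (-0.52).

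Interferon-stimulated genes were included because EIF2AK2 is one of that class, though it was kept off the list. Of 17 tested, 6 rose and 2 fell for methionine, 6 rose and none fell for tryptophan, 2 rose and 2 fell for histidine, and 1 rose and 2 fell for valine. All genes called were 53.2%, 51.3%, 27.9% and 12.5% in these comparisons, so the share of the list called lay below that of all genes in the first 3. With equal totals the counts were 8 and 1, 8 and 0, 3 and 1, and 3 and 1. For phenylalanine, isoleucine and leucine limma called none. ISG15, a ubiquitin-like modifier, rose for methionine from 285 ± 57.6 to 669 ± 114 normalised counts (1.23), and STAT2, a transcription factor of the interferon pathway, rose for tryptophan (1.32) and fell for methionine (-1.22). EIF2AK2 itself was not called in either.

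For members whose log2 fold changes spanned at least 1 unit, the genes with the most similar values over the 7 comparisons were sought among 10514 genes, by the root mean square difference. The nearest to PPP1R15A were CDC42EP3 (0.10), NIBAN1 (0.19) and SLC24A1 (0.19). CDC42EP3 changed by 1.49 for methionine, 0.56 for tryptophan and -0.69 for leucine. The nearest to EIF2S1 were RAB29 (0.11), ST7L (0.11) and ARID1A (0.13), to EIF2B5 LRWD1 (0.14), COPS5 (0.15) and LRR1 (0.16), and to EIF2AK3 TPP2 (0.12), DNAJC6 (0.15) and OSBP (0.15). LRWD1, COPS5 and LRR1 changed by -1.22, -1.26 and -1.58 for tryptophan. The values share control libraries for the branched-chain amino acids, so the 7 comparisons are not 7 independent points.

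In GENCODE 29 (GRCh38) the genes lie on 9 chromosomes. EIF2AK1 is at chr7:6022244-6059230, EIF2AK2 at chr2:37099210-37157065, EIF2AK3 at chr2:88556741-88627576, EIF2AK4 at chr15:39934146-40035591 and GCN1 at chr12:120127203-120194710. IMPACT is at chr18:24426616-24453535, PPP1R15A at chr19:48872392-48876057, PPP1R15B at chr1:204403387-204411791, EIF2S1 at chr14:67359997-67386516 and EIF2B5 at chr3:184135038-184146112. Genes on the opposite strand overlap EIF2AK1 (AIMP2 and ANKRD61), EIF2AK2 (GPATCH11) and EIF2S1 (ATP6V1D), and antisense transcripts overlap EIF2AK3, PPP1R15B and EIF2B5. The libraries were strand-specific, but no source used here states the strand setting of the counting, so these counts are uncertain to that extent.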

How the data were processed

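All 59 Jurkat libraries were used, grouped by the labels. For each amino acid the authors deposited a table of normalised counts, here treated as a signal. Upstream tools were kallisto 0.50.1, FastQC 0.11.9 and DESeq2 1.44.0 on GRCh38, per the submitters' processing notes, which give no settings. Low values were whole multiples of a step (within 0.1) in 66.2% to 86.1% of cases, so reads were not recovered, count models were not used and the depth behind a value is unknown.

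Tests were made within each table by limma 3.58.1 (R 4.3.3; eBayes with an intensity trend, two-sided) for genes averaging at least 10, after log2 transformation with a pseudocount of 1. Differences of response were interactions over groups with separate controls. The code was tested on simulated data. All 10 members were named, with at most 3 genes of smallest adjusted p per list and comparison, the 3 genes nearest to a member, and ATF4, DDIT3, TRIB3 and ASNS as readouts. Members and lists were chosen with earlier results of these data known. Alternatives changed the pseudocount (0.25, 5), the filter (none, 100), the scaling (trimmed mean, equal totals) or the intensity trend, added a replicate block, or omitted each library or those high in ribosomal protein mRNA. Deviations of same-numbered libraries from their group means correlated weakly (r from -0.19 to 0.19), though for valine all were positive (0.04 to 0.19). The labels do not explain the numbers, which were not taken to pair samples in the main fit.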

Additional observations from a re-analysis of the deposited data

Results flagged for a closer look

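Each tested member was examined in each group of each table, which gave 126 sets of 4 or 5 values. Of these, 11 held a value that stood far from the rest. The sets share libraries, and the branched-chain controls enter more than once. A chance rate for independent sets therefore does not apply. Phenylalanine control 1 stood apart for EIF2AK3 (135 normalised counts, others 483 to 619), GCN1 (2606, others 3765 to 4202) and EIF2S1 (2027, others 1418 to 1510). Valine restricted 2 stood apart for EIF2AK4 (1080, others 1520 to 1679), PPP1R15B (1350, others 2288 to 2551) and EIF2S1 (1062, others 1693 to 1824). Both libraries are high in ribosomal protein mRNA, by 0.75 and 0.53 log2 units, and its part in these values was not tested. Branched-chain control 1, also high by 1.08 to 1.10, stood apart for EIF2B5 in the leucine table (1255, others 921 to 975) and the valine table (1346, others 974 to 1021), which are 2 scalings of 1 library. Its total was high too, at 19.0 M (leucine table) and 20.5 M (valine table). The other branched-chain controls had 15.5 to 16.2 M and 16.4 to 17.3 M. Per M of total, EIF2B5 in all these controls ran only from 56.7 to 66.1 and from 56.3 to 65.5. Methionine control 1 stood apart for EIF2AK3 (213, others 398 to 470), tryptophan control 1 for EIF2S1 (4069, others 3146 to 3412) and leucine restricted 1 for PPP1R15A (1641, others 2111 to 2291).

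Responses differed over histidine, methionine, phenylalanine and tryptophan in limma's F test for 5 members. The adjusted p was 4.04e-15 for PPP1R15A, 2.91e-14 for EIF2S1, 7.86e-09 for EIF2B5, 1.01e-05 for EIF2AK4 and 0.00193 for GCN1. Among these 4 amino acids the largest response was that of methionine for PPP1R15A (1.34, higher in 5 of 5 restricted libraries than in any control) and that of tryptophan for EIF2B5 (-1.37) and EIF2AK4 (0.56).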

How the results depend on the processing

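Under the alternatives, counts of members called stayed within 1.5 times of those reported for histidine (1), tryptophan (6), isoleucine (0) and leucine (1). So did the counts of members in the F test (5) and of pairwise differences (46). With all libraries EIF2AK3 missed the threshold of the F test (limma adjusted p 0.102). It passed without phenylalanine control 1 (adjusted p 0.000349) and without the libraries high in ribosomal protein mRNA (adjusted p 0.000702). With equal totals 8 members were called for methionine in place of 3 (EIF2AK1, EIF2AK2, EIF2AK3, EIF2AK4 and PPP1R15B added), and 2 for phenylalanine in place of 1. Of all genes, 9328 of 16906 were then called for methionine and 2295 of 17019 for phenylalanine. For tryptophan the count of 6 held with equal totals, but its members changed. EIF2AK1 (0.18) and PPP1R15B (0.18) turned upward and were called. GCN1 turned upward (0.10) and EIF2AK3 stayed lower (-0.27), and neither was called any longer. The result was 4 rises and 2 falls. The count for phenylalanine was 0 with the replicate block and 0 with no intensity trend. It was 4 once both libraries high in ribosomal protein mRNA were omitted, and 0 to 2 with 1 library left out. Of all genes, 803 were called with the block, 1497 with no trend and 4435 of 16767 without both libraries, against 1736 of 17021. For valine the count of members was 0 to 1 with 1 library left out, the 0 being without branched-chain control 4. The replicate block also ended the call of GCN1 for tryptophan (limma adjusted p 0.0796) and changed no other member's call. Whether the numbers pair the samples is not stated in the labels. Leaving out tryptophan restricted 5, control 3 or control 5 ended that call too (adjusted p 0.0540 to 0.0584). The causes of these changes were not tested. Trimmed mean scaling, both pseudocounts and both filters changed no member's call. Precision is limited by 4 or 5 libraries per group, and depth is unknown.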
